A study of Oryza sativa with 9 samples.

Results

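Among rice spikelet transcripts, 107 stood apart in plants homozygous for the i allele of f5, while the heterozygote was not listed as different from the other homozygote. They were chosen from 832 transcripts of 727 loci in 3 deposited lists of differential expression, by the values described here. A transcript qualified when f5-i/i differed by at least 2-fold, in the same direction, from both f5-i/j and f5-j/j and was listed by the authors against both, and when f5-i/j was not listed against f5-j/j. Loci with more than 1 listed transcript were left out. So were loci of chromosome 5 and transcripts described by the words for ribosomal proteins, translation, tRNA, ubiquitin, the proteasome, heat shock proteins, chaperones, photosystems or light harvesting. In f5-i/i, 51 of the 107 were higher and 56 were lower.

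The study asked which processes go with the male sterility that the f5 locus causes in crosses between rice subspecies. It used BC14F2 plants, the selfed offspring of a long backcrossing series, and took f5-i/i homozygotes, the heterozygotes f5-i/j and f5-j/j homozygotes. All were grown in field rows, and the labels name no treatment and no age or stage. PolyA RNA of spikelets was sequenced, 3 samples a genotype, which the labels do not tie to separate plants. A spikelet mixes green hulls, lodicules, anthers and pistil, so fewer cells of a type and less RNA per cell cannot be told apart.

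Loci of hybrid male sterility lower pollen fertility when differing alleles meet in a plant, and many act during pollen development in the anther. Segregating progeny show whether the heterozygote lies near a homozygote or between both, and geneticists call nearness to a homozygote dominance, for a transcript level as for a visible trait. The transcripts described here are those for which the authors did not list the heterozygote against f5-j/j, which does not make the means of that pair equal.

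Only the authors' mean of each genotype was analysed. Neither the unit nor the read depth is stated, so that levels of different transcripts can be ordered only as deposited means, not per length, and no error or replicate spread belongs to any value below. All levels are therefore the authors' means, all folds are ratios of 2 such means, and no difference could be set against the spread between samples or tested. The lowest mean is 0.01, a floor shared by many transcripts. No fold against it is printed here, but the fold criteria took it as 0.01. A mean of 3 values that cannot be negative does bound them, since no single sample can exceed 3 times its genotype's mean. In all 51 higher transcripts the f5-i/i mean was over 3 times both others, so at least 1 f5-i/i sample was above every sample of the other genotypes. In all 56 lower ones at least 1 sample of f5-i/j and 1 of f5-j/j were above all 3 f5-i/i samples. Whether the remaining samples overlapped cannot be seen. Tissue could not be checked against its markers either, as the lists are filtered: of 10 loci known from the tapetum and the pollen wall, 1 was listed and none was among the 107.

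The choice itself fixes that these transcripts differ between the genotypes, so their counts are a description. Of the 832 transcripts, the authors listed 57.7% for f5-i/i against the heterozygote (26.9% higher and 30.8% lower in f5-i/i). They listed 50.6% for the 2 homozygotes, 22.8% higher and 27.8% lower in f5-i/i, and 42.1% for the heterozygote against f5-j/j. Before the exclusions 173 transcripts met the criteria, 70 higher (8.41% of the 832 listed) and 103 lower (12.4%). The 2-fold criterion removed none of them: the smallest qualifying fold among transcripts above 0.01 throughout was 3.49, for epsin (LOC_Os04g51120.3). Being listed was the effective threshold, and every listed transcript has a probability of at least 0.8 in the authors' deposited tables. Just inside it was the Rab5 exchange factor LOC_Os03g62580.3, at a probability of 0.802 in the authors' deposited table of f5-i/i with f5-i/j. A further 12 transcripts were listed against both others but also for the heterozygote against f5-j/j, and so fell outside. Kelch-like protein 20 (LOC_Os01g36950.3) was one of these, at 0.01 in f5-i/i, 3.62 in the heterozygote and 18.3 in f5-j/j. Protochlorophyllide reductase (LOC_Os04g58200.1) was another, at 31.1, 354 and 121. Both were picked after their values were seen.

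Most of the 107 were all-or-none at the level of the listed transcript. Among the 51 higher ones, 29 were at 0.01 in both f5-i/j and f5-j/j, 6 were at 0.01 in 1 of them, and 16 were above it in all genotypes, called graded here. Means in f5-i/i of the 29 ran from 3.59 to 18.9 with a median of 5.81. Among the 56 lower ones, 32 were at 0.01 in f5-i/i, which leaves no f5-i/i sample above 0.03. In those 32 the authors' means ran from 3.80 to 26.6 in f5-i/j (median 6.11) and from 3.64 to 22.4 in f5-j/j (median 5.97). Against a mean of 0.01 the authors' probability followed the other mean. For the 29 against f5-i/j it was 0.809 at the lowest f5-i/i mean, 3.59, and 0.975 at the highest, 18.9. The listing threshold therefore bounds these ranges from below and bears on their medians. The other 24 were graded, and the highest mean of the set, 307, was among them.

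**Figure D1:**
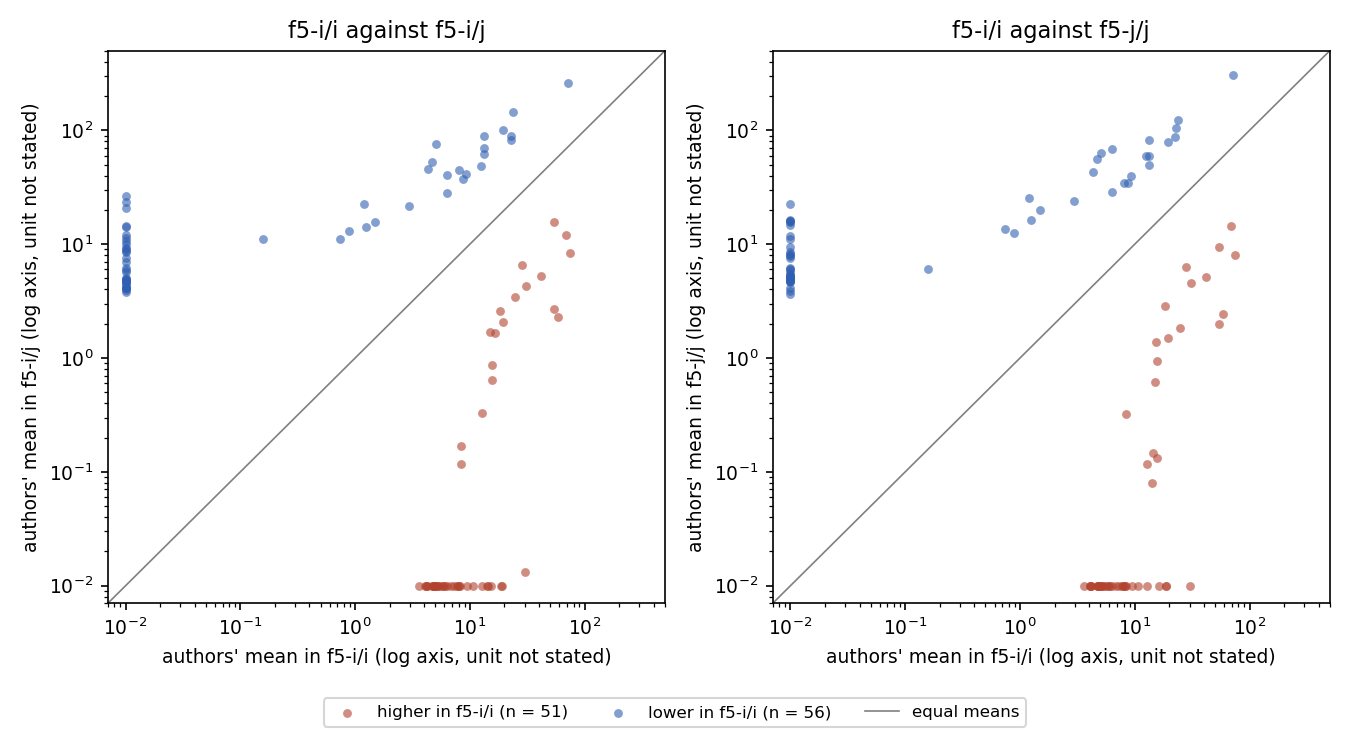
Authors' mean in f5-i/i (horizontal, log axis) against the mean in the heterozygote f5-i/j (left panel) or in the homozygote f5-j/j (right panel) for the 107 transcripts, each point 1 transcript. The 51 higher in f5-i/i lie below the line of equal means, many on the floor at 0.01, and the 56 lower lie above it, 32 of them at 0.01 on the f5-i/i axis.

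A listed transcript is 1 splice or annotation model of its locus, numbered from 1 by the annotation, and the rule did not use that number. Of the 29 transcripts at 0.01 in both other genotypes, 3 were model 1 (10.3%), whereas 12 of the 16 graded higher ones were (75.0%). Of the 32 at 0.01 in f5-i/i, 14 were model 1 (43.8%), as were 16 of the 24 graded lower ones (66.7%). The same lean was present outside the set. Among the 401 other transcripts with 1 listed model a locus and the same exclusions, model 1 made up 32.7% of the 214 with a listed mean at 0.01. It made up 52.4% of the 187 without a listed mean there. A mean that was not listed is unknown and could be 0.01, whereas all means of the 107 are known, so the classes are not quite alike. Because the remaining models of these loci were not listed, a level of 0.01 does not say that a locus was silent, and the division of reads among models is an estimate of the authors' counting. Median coding length was 867 bases in the 107 and 858 bases in the 401.

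**Figure D2:**
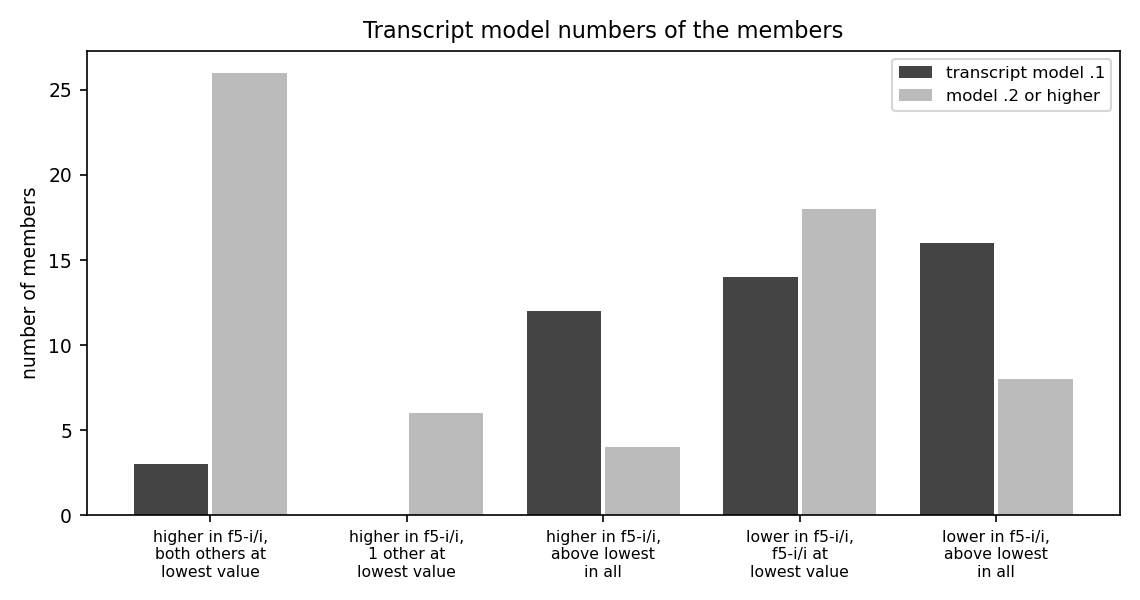
Number of transcripts (vertical) that are model 1 of their locus or a higher-numbered model, by direction and by whether a genotype was at the lowest value. The all-or-none transcripts higher in f5-i/i were mostly higher-numbered models, with 3 of 29 at model 1, and the graded ones mostly model 1, with 12 of 16.

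The rule barred only a listing of the heterozygote against f5-j/j, so the means of that pair could still differ. Both means were above 0.01 for 72 transcripts, and f5-i/j differed from f5-j/j by less than 1.5-fold in 49 and by less than 2-fold in 59. The median log2 ratio of f5-i/j over f5-j/j was 0.05, with f5-i/j the higher in 39 and the lower in 33. It lay between the homozygotes in 37 and beyond f5-j/j in 35. The graded lower transcripts were tightest, with 22 of 24 within 1.5-fold and all 24 within 2-fold. Leaving out every transcript listed for that pair takes out wide pairs, so the closeness is partly fixed by the choice. How much of it was fixed in this way was not tested. A sugar transporter of solute carrier family 50 (LOC_Os02g19820.1) was at 22.6 in f5-i/i, against 88.8 in the heterozygote and 88.0 in f5-j/j.

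Of these 72, 13 had f5-i/j and f5-j/j at least 2-fold apart even though the authors did not list the pair. With means at the floor counted as 0.01, 89 of the 107 lay within 2-fold. These include the 29 at 0.01 in both f5-i/j and f5-j/j, whose closeness is fixed by the floor. Others outside 2-fold included LOC_Os08g40790.4, at 0.01 in the heterozygote and 1.38 in f5-j/j. LOC_Os07g30670.1, without description, was at 15.6 in f5-i/i, 0.867 in the heterozygote and 0.133 in f5-j/j. The 6.5-fold gap between the last 2 is one of very low means. For LOC_Os03g03590.1, annotated with hydrogen ion transport, the means were 0.01 in f5-i/i, 3.95 in the heterozygote and 16.1 in f5-j/j. A catalytic alpha subunit of the AMP-activated kinase type (LOC_Os01g18800.1) had 0.01, 4.23 and 16.1 in the same order, and an adenylyltransferase and sulfurtransferase, a weak match (LOC_Os08g30020.4), 0.01, 4.60 and 16.2. In these last 3 the heterozygote mean lay between those of the homozygotes. LOC_Os07g30670.1 and LOC_Os03g03590.1 were singled out after their values were seen.

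**Figure D3:**
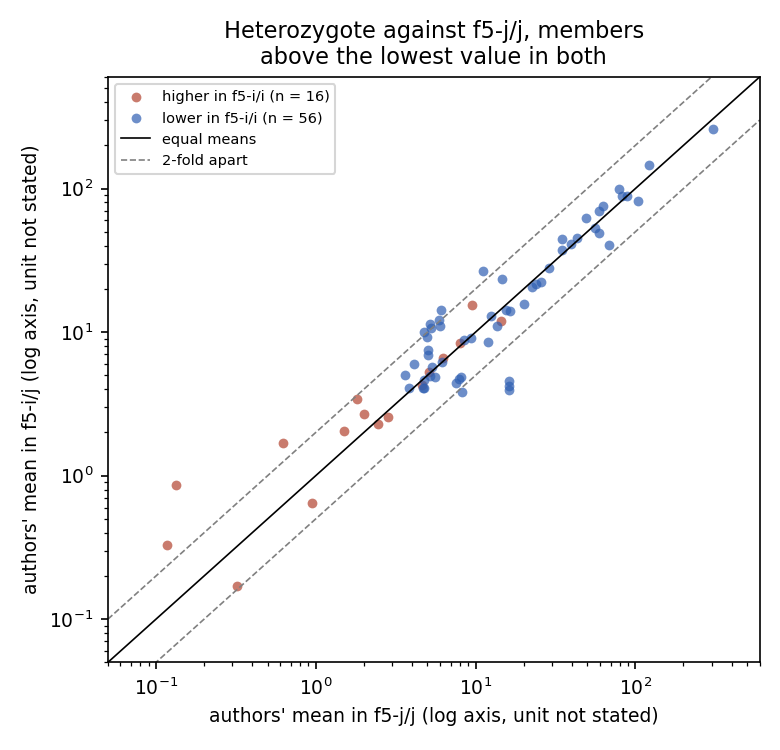
Authors' mean in f5-i/j (vertical) against f5-j/j (horizontal), both log axes, for the 72 transcripts above the lowest value in both. Solid and dashed lines mark equal means and 2-fold distance. Of the points, 59 lie within 2-fold.

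Descriptions were present for 73 of the 107, most of them carried over from similar proteins of other species, and 4 rest on weak matches (expect value over 1e-10). Of the described transcripts 69 fell into 12 of 14 functional groups. Counts of each group are given beside those over all listed transcripts of that group, and no group was tested. The counts over all listed transcripts include those of the 107, whose direction in both comparisons is fixed by the rule. A lean in them is therefore not independent of the set.

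Transcripts for chromatin, DNA and the cell cycle stood on 1 side: all 7 were higher in f5-i/i. The group also takes in proteins of the cytoskeleton. Nucleophosmin and the 2 demethylase-described transcripts came in by words beyond those planned for the group, so the count of 7 rests partly on them. Of the 19 listed transcripts of this group, f5-i/i had 10 higher and 0 lower against f5-i/j, and 12 higher and 3 lower against f5-j/j. The 7 are themselves counted in the 10 and in the 12. Of the 7, 2 are described as lysine-specific demethylase 8, a Jumonji-type protein named for its human relative. LOC_Os09g31380.1 was at 30.6 in f5-i/i, 4.31 in the heterozygote and 4.59 in f5-j/j, 7.10-fold and 6.67-fold apart. The other, LOC_Os08g39810.1, was at 8.42, 0.170 and 0.320 in the same order. The SWI/SNF subunit LOC_Os04g40430.1, of a complex that moves nucleosomes, had 18.3 in f5-i/i, 2.58 in the heterozygote and 2.85 in f5-j/j. Nucleophosmin (LOC_Os01g68160.2), a histone chaperone of the nucleolus in animals, was at 14.2, 0.01 and 0.0800. Cohesin subunit SCC1 (LOC_Os04g41110.2), which closes the ring around sister chromatids, and ARP2/3 subunit 2 (LOC_Os04g43290.3), of the complex that branches actin filaments, were at 4.94 and 4.77 in f5-i/i and at 0.01 elsewhere. The kinesin-described LOC_Os08g40790.4, a weak match, was at 15.3 in f5-i/i, 0.01 in the heterozygote and 1.38 in f5-j/j.

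RNA processing gave 6 higher and 4 lower. The 26 listed transcripts of the group were 10 higher and 7 lower against f5-i/j, and 9 and 9 against f5-j/j. On the higher side, symplekin (LOC_Os01g49940.2), a scaffold of mRNA 3′ end formation, was at 7.86, nuclear cap-binding subunit 2 (LOC_Os02g39890.2) at 10.6, a Dicer-described transcript (LOC_Os08g42189.3) at 7.72 and a cellular nucleic acid-binding protein (LOC_Os03g60600.2) at 4.11, each with 0.01 in f5-i/j and f5-j/j. Polypyrimidine tract-binding protein 2 (LOC_Os01g64770.2), a splicing regulator, had 14.4 in f5-i/i, 0.01 in the heterozygote and 0.147 in f5-j/j. The YTH domain transcript LOC_Os02g51140.2, described by a family that reads methylated adenosine, was the graded one, at 15.5, 0.643 and 0.943. Its match has an expect value of 6e-12 over 624 coding bases, and its function was not tested.

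On the lower side, a proteinaceous RNase P (LOC_Os04g59610.2), a protein-only enzyme that trims the 5′ end of precursor tRNA, was at 6.29 in f5-i/i, 27.9 in the heterozygote and 28.9 in f5-j/j. RPP25 (LOC_Os11g06760.2), a protein subunit described for RNase P and RNase MRP alike, was at 0.01, 14.3 and 15.5. Mago nashi (LOC_Os08g01660.1; MAGO1 by the RefSeq gene table), a core protein of the exon junction complex, had 0.01, 5.98 and 4.12. A transcript described as CCR4-NOT subunit 7/8 (LOC_Os08g44820.1), a deadenylase, had 0.01, 3.80 and 8.26. Its match has an expect value of 5e-20 over 1971 coding bases, and its activity was not tested.

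Signalling proteins divided 5 to 4. The 22 listed kinase, phosphatase and receptor transcripts were 9 higher and 7 lower against f5-i/j, and 6 and 6 against f5-j/j. The highest f5-i/i mean of the 107 was that of an SRK2 kinase (LOC_Os12g39630.1), of the family that carries abscisic acid and osmotic stress signals, at 74.8 in f5-i/i, 8.44 in the heterozygote and 8.01 in f5-j/j. That is 8.86-fold and 9.34-fold. A transcript of the AMP-activated kinase type (LOC_Os03g22050.4), of the energy-sensing kinases, was at 68.7, 12 and 14.5, whereas its namesake LOC_Os01g18800.1 went the other way, as given above. Calmodulin (LOC_Os07g48780.2), a calcium sensor, was at 18.9 in f5-i/i and at 0.01 in both others, the highest mean among the 29. A 14-3-3 protein (LOC_Os02g36974.5), which binds phosphorylated partners, was at 5.46 with 0.01 in both others, and protein phosphatase 1G (LOC_Os06g44210.2) at 8.37, 0.117 and 0.01.

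Among the lower signalling transcripts, a glycogen synthase kinase 3 (LOC_Os01g19150.3), of the family that restrains brassinosteroid signalling in Arabidopsis, was at 9.29 in f5-i/i, 41.2 in the heterozygote and 39.5 in f5-j/j. A transcript described as protein phosphatase 1A (LOC_Os01g37130.1; OsPP2C05 by the RefSeq gene table) was at 0.01, 9.03 and 9.39. The MAP kinase kinase LOC_Os01g32660.5 was at 0.01, 4.89 and 8.07.

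Transcription regulators divided 5 to 4 as well. Their 42 listed transcripts were 15 higher and 12 lower against f5-i/j, and 7 higher and 18 lower against f5-j/j. The same description could stand on both sides: of 2 Dof factors described as DOF5.5, a regulator of flowering time in Arabidopsis, LOC_Os02g45200.2 was at 5.30 in f5-i/i and 0.01 in the others, while LOC_Os01g15900.1 was at 1.25 in f5-i/i, 14.1 in the heterozygote and 16.4 in f5-j/j. A transcript described as a type-B response regulator (LOC_Os01g74020.1), a family that carries out cytokinin responses, was at 12.8, 0.330 and 0.117. Its match has an expect value of 1e-22 over 717 coding bases, and a role in cytokinin responses was not tested. RNA polymerase II subunit RPB1 was the match of LOC_Os11g45290.2, at 18.6 in f5-i/i and 0.01 in both others, and its coding length of 420 bases is short of a whole large subunit. A MYB factor (LOC_Os02g42850.1) and a homeobox-leucine zipper factor (LOC_Os03g41510.3) were at 3.59 and 4.82 in f5-i/i and at 0.01 in both others.

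Lower in f5-i/i were a MYC2-described factor and a jasmonate ZIM domain protein. In Arabidopsis, ZIM domain proteins restrain MYC2 until jasmonate removes them, but whether these 2 transcripts encode such a pair was not tested. The MYC2-described LOC_Os04g23550.1, with a match at an expect value of 6e-15, was at 0.883 in f5-i/i, 13 in the heterozygote and 12.5 in f5-j/j. The ZIM domain protein (LOC_Os03g08330.1) was at 1.5, 15.8 and 20.0. Mediator subunit 13 (LOC_Os09g21230.5) had 0.01, 4.74 and 7.93, and a G-box-binding factor (LOC_Os12g13170.1) 0.01, 5.02 and 3.64. Of the 5 transcripts placed in the hormone group by description, the SRK2 kinase and the response regulator match were higher, and 3 were lower. Beside the ZIM domain protein these were an auxin-responsive IAA protein (LOC_Os01g09450.1), a repressor of auxin responses, at 0.01, 8.76 and 8.46, and a tryptophan-pyruvate aminotransferase (LOC_Os01g55050.1), named for the first step of auxin synthesis, at 0.01, 20.6 and 22.4. All 15 listed hormone transcripts were 3 higher and 7 lower against f5-i/j, and 4 and 3 against f5-j/j.

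Transporters stood on the lower side: all 5 were lower in f5-i/i. The 16 listed transport transcripts were 3 higher and 6 lower against f5-i/j, and 4 higher and 8 lower against f5-j/j. The 5 make up most of the 6 and of the 8, so the rest of the group does not show the same lean. Both transcripts described as solute carrier 35 E1, relatives of the phosphate translocators of plastids, were graded. Both came in by words beyond those planned for the group, so the count of 5 rests partly on them. LOC_Os07g33954.1 was at 71.1 in f5-i/i, 261 in the heterozygote and 307 in f5-j/j, the highest means of the set, and LOC_Os07g33910.2 at 19.4, 100 and 79.2. The loci lie close together on chromosome 7 and carry the same description. Whether reads were shared between them was not examined, and the levels are uncertain to that extent. The proton pump LOC_Os04g56160.3, an ATPase that energises the plasma membrane, was at 23.0, 81.7 and 104, and the magnesium transporter LOC_Os03g48000.2 at 0.01, 4.10 and 4.76.

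Sugar, starch and central carbon metabolism counted 4 lower and 1 higher, with 23 listed, 2 higher and 13 lower against f5-i/j, and 6 and 7 against f5-j/j. Besides the family 50 sugar transporter, which counts here too, plastid glyceraldehyde-3-phosphate dehydrogenase (LOC_Os04g38600.3), of the Calvin cycle, was at 8.06 in f5-i/i, 44.6 in the heterozygote and 34.6 in f5-j/j. Beta-amylase (LOC_Os03g04770.1), which releases maltose from starch, was at 2.95, 21.7 and 24, that is 7.36-fold and 8.13-fold lower in f5-i/i. Trehalose 6-phosphate synthase/phosphatase (LOC_Os02g54820.3) was at 0.01, 9.30 and 4.98. The higher one, described as phosphofructokinase (LOC_Os08g43580.2), was at 6.84 in f5-i/i and 0.01 in both others. Its gene ontology terms name fatty acid metabolism, and its coding length is 288 bases.

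Geranylgeranyl reductase (LOC_Os02g51080.1), which makes the phytyl tail of chlorophyll, was at 13.2 in f5-i/i, 70.2 in the heterozygote and 59.5 in f5-j/j. It was the single transcript of the chlorophyll and plastid group. Light-harvesting and photosystem proteins had been left out of the 107. The 9 listed transcripts of that group were 0 higher and 8 lower against f5-i/j, and 1 and 4 against f5-j/j. HMG-CoA reductase (LOC_Os08g40180.1; HMGR3 by the RefSeq gene table), the rate-limiting enzyme of the mevalonate pathway, was at 13.2, 89.2 and 82.6. Geranyl diphosphate synthase (LOC_Os06g46450.2), downstream in isoprenoid synthesis, went the other way, at 7.28 in f5-i/i and 0.01 in both others. Lipid metabolism as a whole was 2 higher and 2 lower (14 listed, 4 higher and 6 lower against f5-i/j, 2 and 6 against f5-j/j). Its other pair was glycerol-3-phosphate acyltransferase (LOC_Os11g29120.2), which starts glycerolipid synthesis, at 12.8 with 0.01 in both others, and long-chain acyl-CoA synthetase (LOC_Os11g04980.1), which activates fatty acids, at 0.01, 12.1 and 5.89. The acyltransferase match has an expect value of 7e-28 over 1578 coding bases, and its activity was not tested.

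Amino acid, nucleotide and cofactor enzymes were 2 higher and 5 lower, of 22 listed transcripts with 2 higher and 7 lower against f5-i/j, and 12 and 6 against f5-j/j. The higher ones were all-or-none. UMP-CMP kinase (LOC_Os07g43170.2), of pyrimidine nucleotide synthesis, was at 8.04 and GDP-L-galactose phosphorylase (LOC_Os12g41800.2), a controlling step of ascorbate synthesis, at 5.81 in f5-i/i. Of the lower ones, 3-hydroxyisobutyryl-CoA hydrolase (LOC_Os12g16350.12), of valine breakdown, was at 6.30, 40.7 and 68.7. Aspartate-semialdehyde dehydrogenase (LOC_Os03g63370.1), named for a step towards lysine, threonine and methionine, was at 12.6, 49.0 and 58.9. IMP dehydrogenase (LOC_Os03g56800.2), which leads to guanine nucleotides, was at 0.01, 6.96 and 5.06.

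Redox proteins were 2 higher and 3 lower. Their 18 listed transcripts were 3 higher and 4 lower against f5-i/j, and 5 and 6 against f5-j/j. Glutathione peroxidase (LOC_Os04g46960.3), which reduces peroxides, had 30.3 in f5-i/i, 0.0133 in the heterozygote and 0.01 in f5-j/j, so that no sample of the last 2 genotypes can have exceeded 0.0400. Thioredoxin (LOC_Os02g53400.1) was at 19.5, 2.06 and 1.51. A transcript described as a respiratory burst oxidase (LOC_Os04g36720.1) was lower, at 8.69, 37.1 and 34.7. Its match has an expect value of 9e-29 over 2277 coding bases, and its activity was not tested. Thioredoxin domain protein 5 (LOC_Os03g17860.2) was at 0.01, 14.2 and 6.06 and cytochrome-b5 reductase (LOC_Os12g03070.2) at 0.01, 10.6 and 5.26, both with f5-i/j over 2-fold above f5-j/j.

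Membrane traffic was 4 higher and 2 lower, with 25 listed transcripts that were 9 higher and 7 lower against f5-i/j, and 8 and 6 against f5-j/j. Epsin (LOC_Os04g51120.3), a clathrin adaptor, was at 54.0 in f5-i/i, 15.5 in the heterozygote and 9.47 in f5-j/j. The Rab5 exchange factor (LOC_Os03g62580.3), which switches on a GTPase of early endosomes, was at 14.9, 1.70 and 0.620. SEC22 (LOC_Os06g09850.3), a SNARE between endoplasmic reticulum and Golgi, and a TBC domain protein (LOC_Os01g68010.5), of the proteins that switch Rab GTPases off, were at 8.23 and 4.19 in f5-i/i with 0.01 in both others. Lower were TRAPP subunit 13 (LOC_Os03g19560.1), of a tether of Golgi vesicles, at 4.72, 52.7 and 55.5, and the AP-1 adaptor subunit sigma (LOC_Os03g57040.1), at 0.01, 4.62 and 4.79. No transcript of the set fell in the groups of phenylpropanoids, flavonoids and cell wall (9 listed) or of proteases (13 listed).

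**Figure D4:**
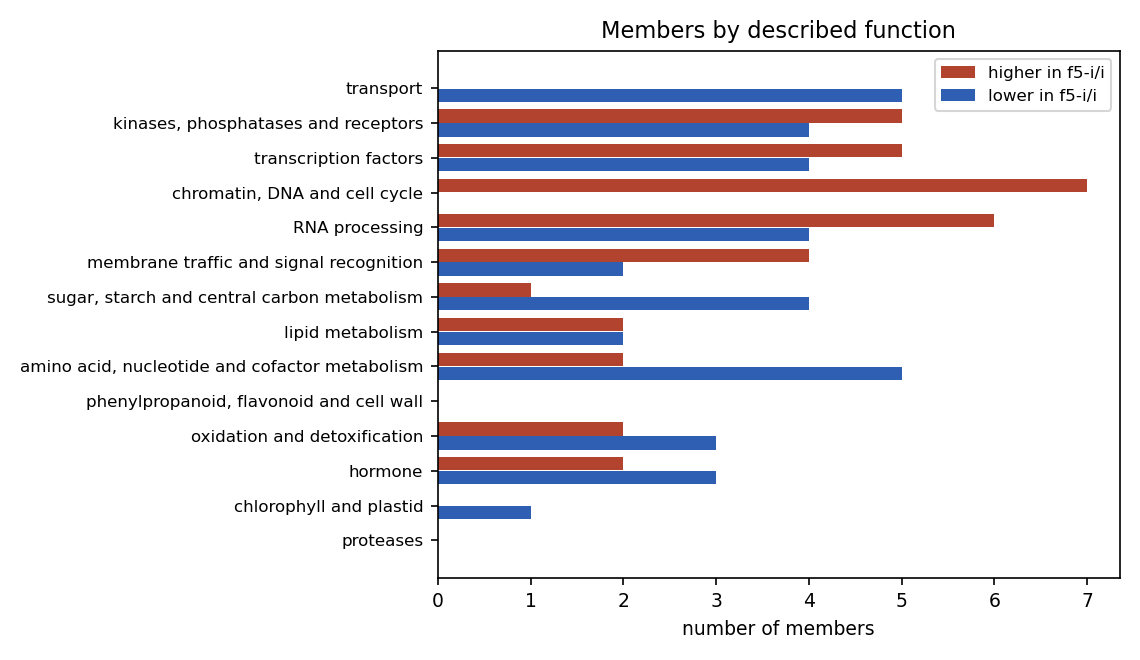
Number of transcripts (horizontal) with f5-i/i above or below both other genotypes in each of the 14 functional groups, found by words in the deposited descriptions. Chromatin, DNA and cell cycle holds 7 higher and 0 lower, and transport 0 higher and 5 lower. 4 transcripts count in more than 1 group.

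Descriptions were lacking for 34 transcripts, 17 in each direction, some with high means. LOC_Os10g25060.1 was at 58.2 in f5-i/i, 2.30 in the heterozygote and 2.46 in f5-j/j. LOC_Os03g15920.1 was at 54.1, 2.68 and 2.0 in the same order, both transcripts over 20-fold apart from each other genotype. On the lower side LOC_Os02g41904.1, with a stress response term and a coding length of 243 bases, was at 23.7, 145 and 122. The 4 described transcripts outside all groups were all lower in f5-i/i. The septum formation protein LOC_Os03g12810.2 was at 0.01, 9.99 and 4.73, and inorganic pyrophosphatase (LOC_Os04g59040.3) at 0.01, 4.09 and 3.84. LOC_Os02g39360.1 was at 1.20, 22.5 and 25.6 and LOC_Os04g41560.2 at 13.4, 62.1 and 49.2. Both are matched to collagen with weak support, and for the second the next match is the zinc finger protein CONSTANS.

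**Figure D5:**
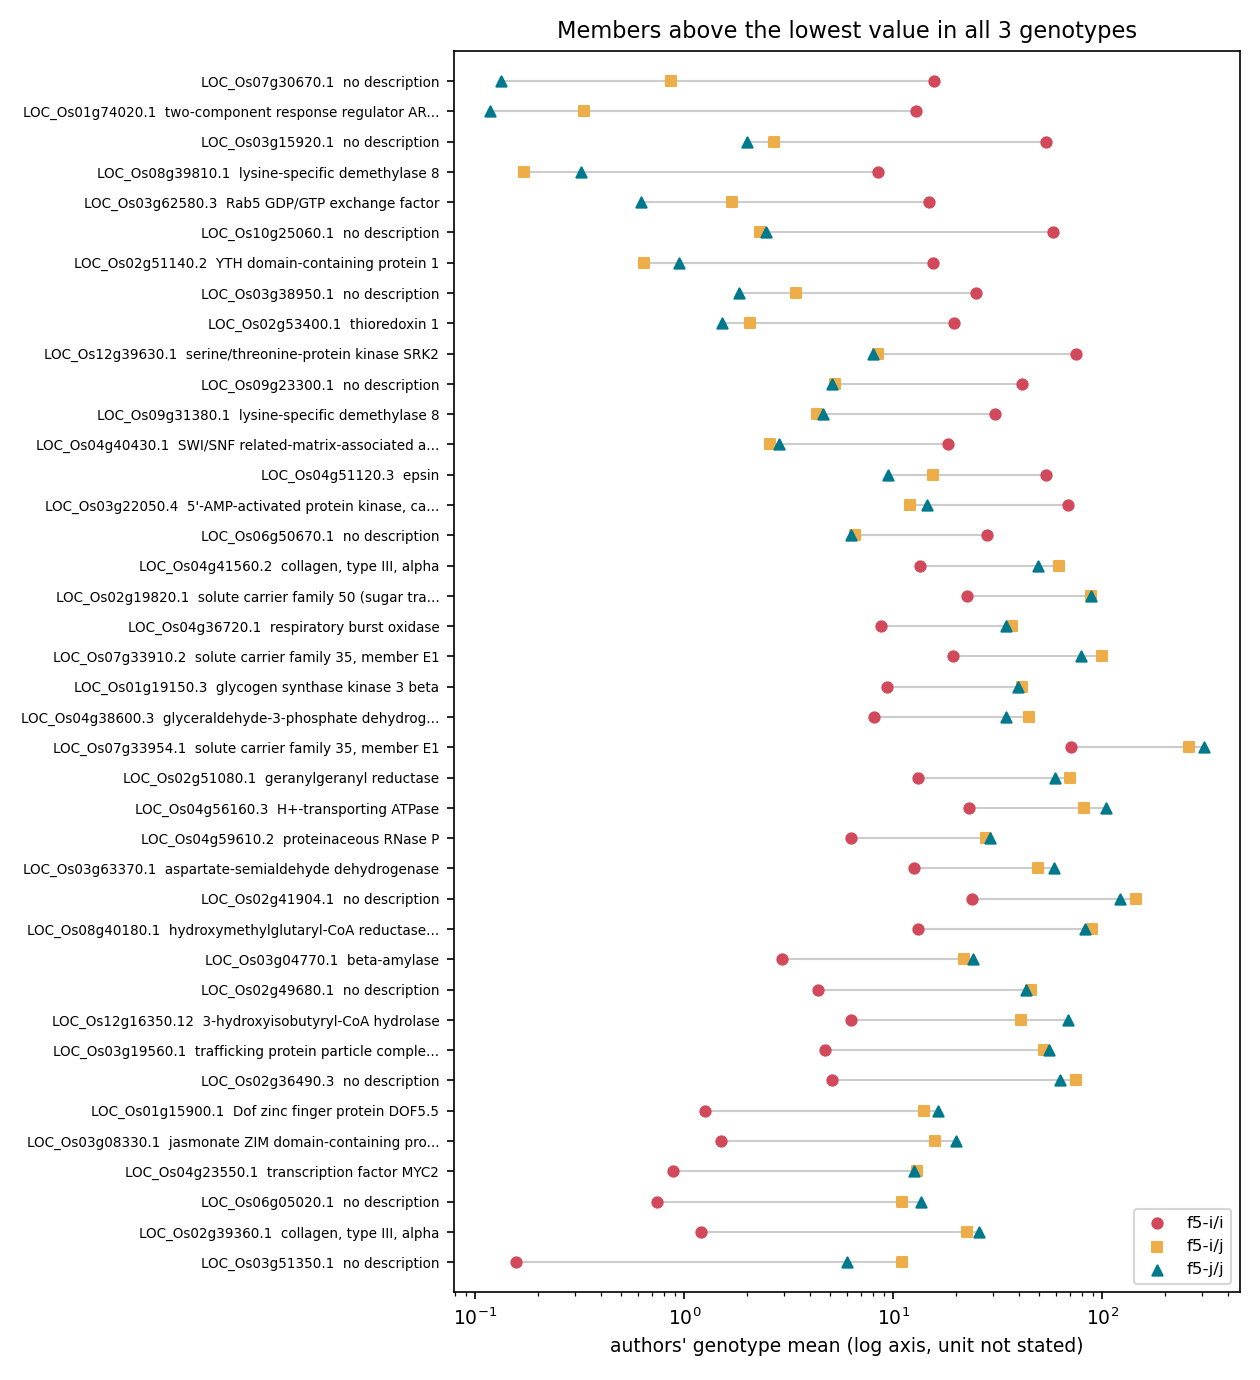
Authors' means in f5-i/i (circles), f5-i/j (squares) and f5-j/j (triangles), on a horizontal log axis, for the 40 transcripts above the lowest value in all genotypes, 1 row each, ordered by the ratio of f5-i/i to f5-j/j. Upper rows have f5-i/i on the right (16 transcripts) and lower rows on the left (24), and the f5-i/j and f5-j/j symbols lie within 2-fold of each other in 37 of the 40 rows.

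Taking only the 40 graded transcripts, the median fold was 8.81 over f5-i/j and 13.3 over f5-j/j for the 16 higher, and 6.29 and 5.68 for the 24 lower. Against f5-i/j the extremes were LOC_Os08g39810.1, 49.5-fold higher, and the undescribed LOC_Os03g51350.1, 70.2-fold lower, at 0.157 in f5-i/i, 11.0 in the heterozygote and 6.03 in f5-j/j.

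Position in the genome was not part of the rule beyond chromosome 5. The 107 loci lay on all 11 other chromosomes, from 3 on chromosome 9 to 19 on chromosome 3. Chromosome 4 had 14, or 31.1% of the 45 listed transcripts there with the same exclusions, and chromosome 9 had 11.5% of 26, the widest values, with no test made. Locus numbers follow chromosome order, and 6 of the 107 (5.61%) had another within 100 numbers. Among the 508 listed transcripts with the same exclusions 122 (24%) did, but that set is larger and denser, so the shares are not like for like. Geranylgeranyl reductase and the YTH domain transcript, 60 numbers apart on chromosome 2, went opposite ways. So did TRAPP subunit 13 and its undescribed neighbour 40 numbers away on chromosome 3. That neighbour, LOC_Os03g19520.3, was at 16.4 in f5-i/i, with 1.66 in the heterozygote and 0.01 in f5-j/j. The neighbouring pair of solute carriers on chromosome 7 was lower at both loci.

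Under the same rule turned to the other genotypes, 51 transcripts had f5-j/j apart and 70 had f5-i/j apart. Those comparisons use the same genotype means, so the 3 sets are not independent. A mean at 0.01 in some genotype occurred in 62.6% of the 107, against 72.5% where f5-j/j was apart and 72.9% where f5-i/j was. Higher transcripts made up 47.7%, 47.1% and 38.6% in the same order.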

How the data were processed

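PolyA RNA from spikelets of 9 samples, 3 per f5 genotype, was sequenced by the authors on an Illumina instrument, per the labels' protocols. The submitters' processing notes list the tools BWA, Bowtie and RSEM, with no version or role. For the genome build, nothing is given in the sources used here. Deposited tables hold, per the file headers, the authors' mean signal of each genotype, the log2 ratio of 2 means and a probability score of differential expression, which is not a p-value. All 2071 means, times 3, were whole hundredths (tolerance 0.001 hundredths). The tables hold no values of single samples.

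From these, 107 transcripts were selected by the stated rule with Python 3.11.15 and pandas 2.3.3, a step tested on simulated data, and log2 ratios were recomputed from the means. The 3 tables list 480 transcripts for f5-i/i with f5-i/j, 421 for f5-i/i with f5-j/j and 350 for f5-i/j with f5-j/j. No test was run. Alternatives were other thresholds, a pseudocount and the exclusions kept in. The 14 groups come from words in the first deposited description, read through and trimmed afterwards.

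The set and the lists were chosen with earlier results of these data known. Named transcripts were, per direction, the 12 described graded ones with the largest smaller fold, the 8 described all-or-none ones and the 5 of any kind with the highest mean, and up to 5 per group. Inorganic pyrophosphatase, LOC_Os04g41560.2 and the undescribed LOC_Os03g19520.3, LOC_Os03g51350.1, LOC_Os07g30670.1 and LOC_Os03g03590.1 were added after their values were seen. Of the 107, 11 matched the RefSeq gene table (assembly ASM3414082v1) by gene number and 3 gained a name. Sequences are not used here.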

Additional observations from a re-analysis of the deposited data

How the results depend on the processing

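Requiring 4-fold, keeping loci with several listed transcripts, keeping chromosome 5 and the excluded descriptions, or requiring f5-i/j and f5-j/j within 2-fold left the number of transcripts, higher and lower, within 1.5 times. Without transcripts at 0.01 in any genotype 40 remained (16 higher in f5-i/i, 24 lower), and 21 (14 higher, 7 lower) had a probability of at least 0.9 in both of the authors' deposited tables. The second setting turns the majority from lower to higher. None of these 21 was graded, as each had a mean at 0.01 in some genotype. The 40 and the 21 therefore share no transcript. Medians of log2 ratios leave out transcripts at 0.01 in either genotype compared, and so cover 19 of the 51 higher and 24 of the 56 lower ones. One alternative added a pseudocount of 1 and, with it, brought in all transcripts at 0.01, so these 2 changes are not separated. The median of f5-i/i over f5-i/j for higher transcripts, 3.25, was 2.76 under it and 2.98 without transcripts under 1 in 2 or more genotypes. That over f5-j/j, 3.77, was 2.86 and 3.22 under these and 3.90 with loci of several transcripts. For lower transcripts the median over f5-i/j, -2.65, was -2.78 with the exclusions kept in. That over f5-j/j, -2.51, was -2.66 with the pseudocount and the transcripts at 0.01, -2.96 with loci of several transcripts and -3.17 with the exclusions kept in. Changes of under 0.1 on the log2 scale were not counted. The median of f5-i/j over f5-j/j stayed between -0.02 and 0.05 under the 4 alternatives run on it. The fewer transcripts under 2 settings follow from their construction, and the cause of the other changes was not tested. No paired analysis was possible because only genotype means were analysed, and leaving out each replicate was not run for the same reason. Depth is unknown.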
